A study of Mus musculus with 26 samples.

Results

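The cytosolic ribosomal protein genes encode the protein parts of the ribosome that works in the cytoplasm. Members were chosen by symbol: Rpl or Rps followed by a number with an optional a, x or l, together with Rplp0, Rplp1, Rplp2 and Rpsa. Rps27a, whose product is made as a fusion with ubiquitin, and the S6 kinases (Rps6k) were left out. At least 100 expected counts (the number of reads that RSEM assigns to a gene) were also required in both RNA libraries of the H2O2/KCl control. This gave 76 genes of 20430 symbols in the RNA tables, 46 of the large subunit and 30 of the small subunit. Comparisons of RNA, or of footprints relative to RNA, with that control therefore share 2 libraries with the choice of members. Comparisons of footprints alone, the heat comparisons and those between treated groups do not. A minimum of 1000 expected counts left the same 76 genes.

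The cells were NIH3T3, an established line of mouse embryonic fibroblasts, and the labels name no genetic change. Polyadenylated RNA was sequenced in 16 libraries of 8 groups: a heat control, 44 °C for 2 h, 42 °C for 8 h, a control shared by H2O2 and KCl, H2O2 (oxidative stress) for 2 h and 7 h, and KCl (osmotic stress) for 2 h and 7 h. Ribosome footprints, the mRNA fragments that ribosomes cover, were sequenced in 10 libraries of the 5 groups of the H2O2/KCl experiment. Each group had 2 replicates. The sources used here give no concentration of H2O2 or KCl. The labels do not say that replicates were separate cultures, so p-values measure only the spread between these samples, which may be technical. Values come from whole cultures and are relative to each library, so a change in the number of cells of a state and a change of RNA per cell cannot be told apart.

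Cells make ribosomal proteins in near-equal numbers, assemble them with ribosomal RNA in the nucleolus, and degrade those left unassembled. In vertebrates their mRNAs begin with a 5′ terminal oligopyrimidine (TOP) tract, a C at the cap followed by a run of C and U. Through this tract the protein LARP1 and the kinase complex mTORC1 control whether the mRNA is loaded on ribosomes, and TOP mRNAs leave ribosomes when mTORC1 is inactive. Some free ribosomal proteins, among them Rpl5 and Rpl11, bind Mdm2, the ubiquitin ligase of p53.

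Start sites are shown because the TOP tract is the known control element of these mRNAs. RefSeq starts (build GRCm38.p6) matched 57 of the 76 genes. Each line gives the 8 bases before the listed start and the first 20 bases of the transcript, with capitals for a run of C and T that opens with C at the start base.
Rpl15, chr14:18270967-18270994, minus strand: aaagccttCTTCCTTTCCTCTggcggca
Rpl28, chr7:4792957-4792984, plus strand: tcgtgtctCTCTTTCCgtctccggccgc
Rplp2, chr7:141447643-141447670, plus strand: gcgtcttcCTTTCgccgccggacgccgc
Rps6, chr4:86857348-86857375, minus strand: agtcgggcCTCTTTTTCgtgacgcctcc
Rps27, chr3:90213629-90213656, minus strand: ctttcgctCCTTTCCggcggtgacgacc
Rps27l, chr9:66946078-66946105, plus strand: tccccgccgcctctatcccggaagttgc
The first 5 carry the run at the listed start. Rps27l, whose RNA and footprints are described below, does not, and neither do most of the 57 genes. A run of 7 begins 10 bases before the Rps27l start shown, and a second listed start of Rps27l has none within 10 bases. A C followed by at least 4 more C or T, read on the transcribed strand only, stood at the listed start in 13 of 57 genes (22.8%), against 3.01% of all 27025 genes in the table. Such a run began within 10 bases of the start in 35 genes (61.4%), against 34.4% of all genes. The share at the start was 20.6% of 34 large subunit genes and 26.1% of 23 small subunit genes. No run was found within 10 bases of the listed starts of Rpl5, Rpl11, Rpl41, Rplp0 and Rpsa. The listed starts are annotated positions, and where transcripts begin in these cells was not measured. A missing run therefore does not show that an mRNA lacks the tract.

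Of 81 symbols that fit the name pattern, 5 missed the count minimum. The member nearest the minimum was Rps27l, with 4634 and 3741 expected counts in the control libraries, and the nearest symbol outside was Rpl32l, with 11 and 10. Rpl3l, Rpl10l, Rpl39l and Rps4l, relatives of members, had 5 or fewer. Footprints could be tested for 75 of the 76 genes. Rpl41, which encodes the smallest ribosomal protein, had 0 footprint counts in all 10 libraries, against 425 to 706 CPM (counts scaled to a common library size with TMM factors) in RNA. The limit that a count of 0 allows for Rpl41, 3 counts over all footprint libraries, is 0.0897 CPM and covers counting error only. RNA libraries held 24441877 to 45244430 expected counts, and footprint libraries 1460751 (the first H2O2 2 h replicate) to 5168537. All 8 fibroblast markers were detected in both assays. In RNA their summed level was 9168 and 9241 TPM (the deposited length-corrected level) in the H2O2/KCl control and 4146 and 4158 TPM at 7 h of H2O2, so the groups did not overlap. Summed RNA of 5 epithelial markers was 36.8 to 112 TPM, of 4 immune markers 5.33 to 44.7 TPM with Adgre1 and Cd3e at 0 in every library, of 4 endothelial markers 0.34 to 3.18 TPM, and of 3 neuronal markers 3.32 to 33.2 TPM.

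Levels per length differed widely among the genes. In control RNA, Rps2 was highest at 5032 TPM ± 334 (SD, n = 2), above Rplp1 at 3542 ± 211 and Rpl41 at 3371 ± 164. The libraries of Rps2 lay above all others, while those of Rplp1 and Rpl41 overlapped. Lowest were Rps20 at 181 TPM ± 5.57, Rpl22 at 176 ± 10.7 and Rps15a at 104 ± 6.87, and the libraries of Rps20 and Rpl22 overlapped. The median was 1560 TPM, and the highest level was 48.2 times the lowest. TPM divides by the length assigned to each gene, so this order is not the order of counts. Rps15a had 12409 and 8832 expected counts in the control, near Rps19 at 11624 and 9413, which stood at 1152 TPM. Rps20 had 13331 and 10878 counts. Control footprints gave another order: Rpl37 was highest at 4887 TPM ± 334 and Rps27 lowest of the genes with footprints, at 333 ± 222. The place of Rps27 is uncertain, because its footprint reads may be divided with a near-identical copy described below. Across 75 genes, log2 TPM in control RNA and in control footprints had a Pearson correlation of 0.116. This is a description over genes measured together in the same libraries of each assay, not independent samples. Libraries and length correction differ between the assays. The part of assigned length in the other order and in this correlation was not tested. The RNA levels of the heat control and of the H2O2/KCl control correlated at 0.987 over 76 genes.

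**Figure D1:**
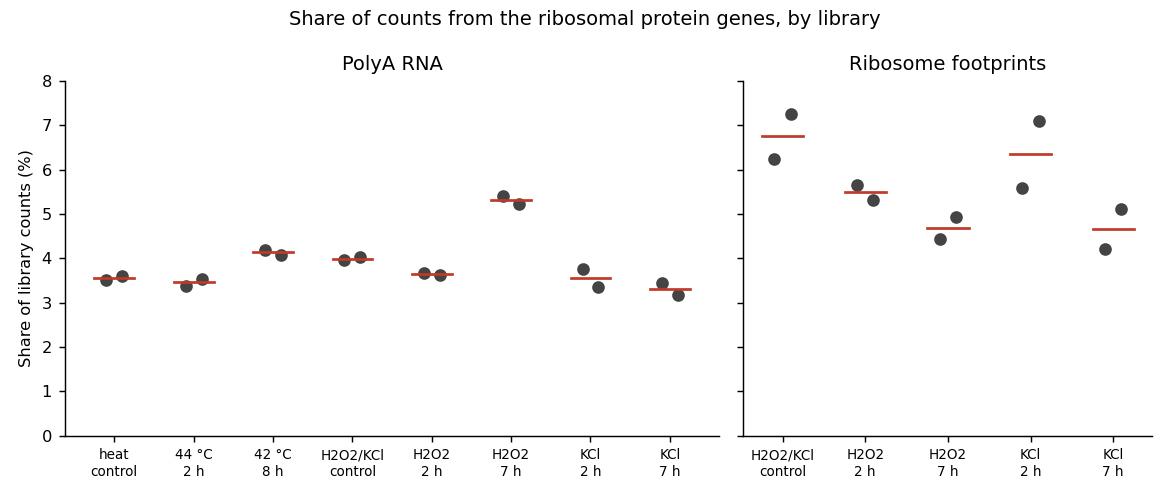
Share of all expected counts that fell on the 76 ribosomal protein genes, in percent, for each library (points) with the group mean (red line), in polyA RNA (left) and footprints (right). RNA is highest at 7 h of H2O2 (5.40% and 5.23%), where the footprint share (4.43% and 4.94%) is below both control footprint libraries (6.24% and 7.26%).

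As a share of the library, the 76 genes took 3.97% and 4.02% of RNA counts in the H2O2/KCl control. At 7 h of H2O2 the share was 5.40% and 5.23%, above both controls. At 42 °C it was 4.2% and 4.08%, above the heat control at 3.51% and 3.60%, and at 44 °C it was 3.39% and 3.54%, overlapping it. The other groups of that experiment lay below the control, with 3.67% and 3.62% for H2O2 at 2 h, 3.75% and 3.35% for KCl at 2 h, and 3.44% and 3.17% for KCl at 7 h. In footprints the control held 6.24% and 7.26%. Both libraries of H2O2 2 h (5.66% and 5.32%), H2O2 7 h (4.43% and 4.94%) and KCl 7 h (4.22% and 5.11%) were below it, while those of KCl 2 h (5.59% and 7.09%) overlapped it. RNA and footprints thus stood on opposite sides of the control at 7 h of H2O2. Large subunit genes took 1.5 to 1.59 times the RNA counts of small subunit genes (group means), and 1.94 to 2.14 times the footprint counts.

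At 44 °C for 2 h the RNA of many ribosomal protein genes was slightly lower and that of a few higher. In edgeR's quasi-likelihood test, at an adjusted p of 0.05 over all genes, 39 of 76 genes fell and 4 rose, beside 35.7% and 35.4% of the 12747 genes tested. The median log2 change was -0.13, against 0.00 for all genes. Rpl3, a large subunit protein that reaches towards the catalytic centre, was at 870 and 858 CPM in the control and 634 and 639 CPM at 44 °C. The 2 groups did not overlap, and the log2 change was -0.44 ± 0.04 (SE, adjusted p = 3.3e-07, edgeR). Rpl36 (-0.42, adjusted p = 7.1e-06) and Rpl11 (-0.42, adjusted p = 6.7e-07) fell by similar amounts. The 4 that rose were Rps2 (0.22), which lies at the mRNA entry channel, the stalk base protein Rplp0 (0.21), Rps26 (0.13) and Rpsa (0.10). Rps2 went from 1597 and 1670 CPM to 1911 and 1906. The call of Rps26 was lost without the first control library (0.04) or without the second 44 °C library (0.08), and that of Rpsa without either control library (0.10 and 0.11) or without the second 44 °C library (0.08). With log2(TPM + 1) values 27 genes were lower and 7 higher. All 8 fibroblast markers also fell at 44 °C, with summed levels of 8042 and 7796 TPM against 11090 and 11280 TPM in the control, and their part in the result was not tested.

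At 42 °C for 8 h every ribosomal protein mRNA was higher by a small amount (75 of 76 on the log2(TPM + 1) scale, the exception being Rpl10). All 76 were called higher (31.7% of all genes were), and in all 76 both libraries lay above both controls (40.4% of all genes). The median log2 change was 0.35, or 1.27-fold, and the changes ran from 0.15 to 0.55. Rps12, of the small subunit head, went from 437 and 419 CPM to 658 and 594 CPM, the highest change (0.55 ± 0.06, SE, adjusted p = 1.2e-06, edgeR). Rps2 (0.51) and Rpl32 (0.50) followed. At the low end stood Rpl10 (0.15, adjusted p = 0.010), which is added late in large subunit assembly, Rps20 (0.19) and Rps28 (0.20). Rpl10 went from 638 and 627 CPM to 726 and 673, so the groups stayed apart by less than the spread within the 42 °C group. Its call was lost without the first 42 °C library (0.09) or the second control library (0.13). With log2(TPM + 1) values the median of all genes moved from -0.01 to -0.16, the members' median was 0.16 (0.32 above all genes), 53 genes were called higher and none lower, and Rpl10 stood at -0.04. The fibroblast markers, 2 higher and 5 lower of 8, were at 9243 and 9580 TPM, against 11090 and 11280 TPM in the control. Their part in the result was not tested.

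Between the heat treatments, 75 of 76 genes were higher at 42 °C for 8 h than at 44 °C for 2 h (37.9% of all genes), with a median log2 difference of 0.48. Temperature and duration differ together here and cannot be told apart. The differences were largest for Rpl36 (0.79 ± 0.05, SE, adjusted p = 8.3e-09, edgeR) and Rpl3 (0.79 ± 0.04, adjusted p = 6.0e-10), with Rpl11 at 0.69. Rplp0 was the gene not called (0.08, adjusted p = 0.095): it was at 1825 and 1701 CPM at 42 °C and at 1638 and 1690 at 44 °C, and both treatments lay above its control (1431 and 1448). Without the second 42 °C library Rplp0 was called at 0.14. In log2(TPM + 1) values 58 genes were higher and 1 lower, and Rplp0 stood at -0.17, where the median of all genes was -0.20.

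**Figure D2:**
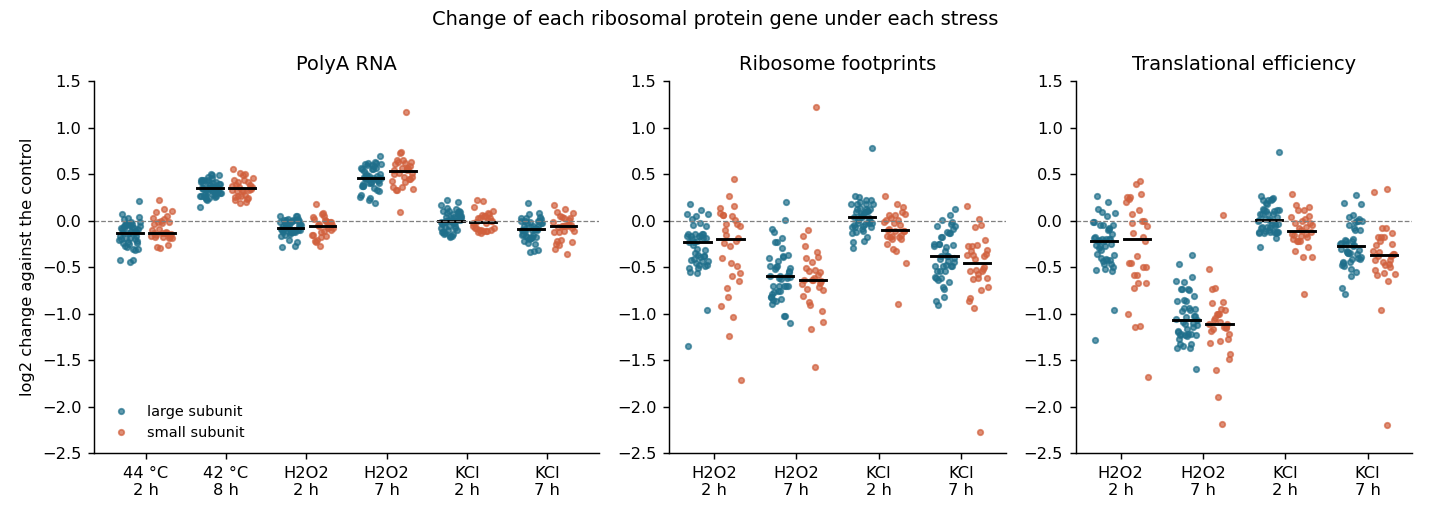
Log2 change of each ribosomal protein gene (points, large subunit blue, small subunit orange, black bar the median) against its control in polyA RNA, ribosome footprints and translational efficiency (footprints over RNA). RNA lies above 0 for every gene at 7 h of H2O2 and at 42 °C (for 75 of 76 at 42 °C on the log2(TPM + 1) scale), while translational efficiency at 7 h of H2O2 has a median of -1.09, and at 7 h of H2O2 Rps27l stands above all other genes in RNA (1.17) and footprints (1.23).

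After 2 h of oxidative stress few of these mRNAs had changed, and after 7 h nearly all were higher. At 2 h, 9 genes fell and 1 rose (26.5% and 27.3% of all 13256 genes), with a median of -0.07. Rpl13a, known for a role in the interferon response beside the ribosome, went from 633 and 671 CPM to 535 and 534 CPM (-0.29). Rpl37a (-0.27), Rps2 (-0.27) and Rpl41 (-0.23) also fell, and Rps15a rose (0.18). With the second H2O2 2 h library left out 2 genes were called, and with the second control library left out also 2. The call of Rps15a was lost in both of these settings and without the first H2O2 2 h library (0.14), that of Rpl41 in both, that of Rpl37a in the former (-0.22) and that of Rps2 in the latter (-0.21). At 7 h, 75 of 76 genes rose (39.4% of all genes). The median log2 change was 0.47, or 1.39-fold, against 0.08 for all genes, and the libraries of all 76 lay above both controls (47.2% of all genes). Rps2, the most abundant in the control, was the gene not called: 2308 and 2190 CPM stood against 2013 and 2189 (0.10 ± 0.07, SE, adjusted p = 0.23, edgeR), and without the first H2O2 7 h library its value was -0.02. Rps20, a small subunit head protein, went from 276 and 285 CPM to 463 and 471 CPM (0.74), and Rps19, a protein mutated in Diamond-Blackfan anaemia, from 240 and 247 CPM to 403 and 404 CPM (0.73). Neither overlapped its control. The smallest called changes were Rpl37a (0.19) and Rpl27 (0.23), and the call of Rpl37a was lost without any 1 of the 4 libraries (0.10 to 0.21), that of Rpl27 without the first H2O2 7 h library (0.12). In the same comparison all 8 fibroblast markers fell, with a median of -1.32 and the summed levels given above, and their part in the result was not tested.

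Osmotic stress left the group close to the control at 2 h. At 2 h of KCl, 5 genes rose and none fell (27.2% and 27.0% of all genes), with a median of 0.00: Rpl23a (0.22), a protein near the exit tunnel, Rps15a (0.22), Rps23 (0.21), Rpl5 (0.20) and Rps12 (0.14). Rpl23a went from 580 and 547 CPM to 678 and 638 CPM. These calls varied with the libraries used, with 1 gene called without the second control library, 3 without the second KCl library and 20 (4 of them higher) without the first KCl library, and on the log2(TPM + 1) scale 19 genes were lower and none higher. At 7 h, 18 genes fell and 2 rose (31.6% and 37.2% of all genes), with a median of -0.07. Rps27l went from 95.8 and 98.0 CPM to 83.0 and 68.3 CPM (-0.35 ± 0.08, SE, adjusted p = 0.0016, edgeR), with no overlap. Rpl28 (-0.34), Rpl36 (-0.32) and Rpl41 (-0.32) fell too, while Rpl23a (0.19) and Rps12 (0.17) rose. With log2(TPM + 1) values 38 genes were lower and none higher. The count was 10 without the second control library and 9 without the second KCl 7 h library. Both settings ended the call of Rpl36 (-0.21 and -0.20), that of Rpl23a was lost without the second control (0.15) or the first KCl library (0.13), and that of Rps12 without the first control (0.16). From 2 h to 7 h of KCl, 17 genes fell and none rose (33.7% and 35.1% of all genes), with a median of -0.08, and the count was 11 without the first KCl 2 h library and 7 without the second KCl 7 h library (3 of them higher in each).

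The stresses were compared directly at 7 h. RNA of all 76 genes was higher under H2O2 than under KCl (41.0% of all genes), with a median log2 difference of 0.57, or 1.49-fold, and no overlap of libraries for any of them (46.5% of all genes). The difference was largest for Rps27l (1.52 ± 0.08, SE, adjusted p = 5.1e-10, edgeR), then Rpl36 (0.91). It was smallest for Rpl10 (0.22) and Rpl7a (0.24): Rpl10 was at 754 and 738 CPM under H2O2 and at 647 and 629 under KCl. The call of Rpl10 was lost without the first H2O2 library (0.20) and that of Rpl7a without the second KCl library (0.19). Within H2O2, all 76 rose between 2 h and 7 h (37.3% of all genes), by a median of 0.54. All 8 fibroblast markers were lower in both comparisons, with medians of -1.09 against KCl and -1.07 against 2 h of H2O2. Their summed levels were 8251 and 9075 TPM at 7 h of KCl and 8488 and 8288 TPM at 2 h of H2O2, against 4146 and 4158 TPM at 7 h of H2O2, and their part in the results was not tested. Changes at 42 °C and at 7 h of H2O2, which have separate controls, correlated at -0.003 across the 76 genes, and at -0.13 without Rps27l. Rps20, among the lowest at 42 °C (0.19), was among the highest at 7 h of H2O2 (0.74), and Rps2, near the top at 42 °C (0.51), was lowest at 7 h of H2O2 (0.10).

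In footprints, 3 genes were lower at 2 h of H2O2: Rpsa, Rpl12 and Rps20. Few genes of any kind were called at that time (0.768% lower, of 10545). Rpsa, also known as the laminin receptor, had 1224 and 1753 CPM of footprints in the control and 431 and 475 CPM at 2 h. The 2 groups were far apart, and the log2 change was -1.72 ± 0.22 (SE, adjusted p = 0.0014, edgeR). Its RNA barely moved, from 1254 and 1195 CPM to 1176 and 1150 CPM. Rpl12, at the base of the stalk, went from 546 and 494 CPM of footprints to 139 and 266 CPM (-1.34 ± 0.26, adjusted p = 0.020, edgeR). Rps20 went from 419 and 317 CPM to 125 and 185 CPM (-1.24 ± 0.25, adjusted p = 0.024, edgeR). Neither overlapped its control, but with 3 of the 4 single libraries left out (the first H2O2 replicate or either control) Rpl12 (-1.42 to -0.97) and Rps20 (-1.43 to -1.0) were no longer called, and they were not called on the log2(TPM + 1) scale (-1.50 and -1.33). Rpsa was called in each of these settings. The median over the 75 genes was -0.23. Translational efficiency (footprints relative to RNA) was tested as an interaction term. It was lower for 6 of the 75 genes at 2 h, a share near that of all 10480 genes (7.46%). These were Rpsa (-1.68 ± 0.22, SE, adjusted p = 0.00019, edgeR), Rpl12 (-1.28), Rps20 (-1.14), Rps12 (-0.998), Rplp0 (-0.96) and Rps19 (-0.72). The calls of Rplp0 and Rps19 were lost without any 1 of 6 of the 8 libraries (Rplp0 -0.997 to -0.62, Rps19 -0.74 to -0.50), and that of Rps20 without the first footprint control (-0.92), while 13 genes were called without the second H2O2 2 h footprint library.

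At 7 h of H2O2 footprints were lower for many of the genes and higher for Rps27l. Of 75 genes 32 fell and 1 rose (10.6% and 17.2% of all genes), the median was -0.61, or 0.653-fold, and both libraries lay below both controls in 61 (31.8% of all genes). Rpsa was at 676 and 724 CPM, above its 2 h value and below its control (-1.09 ± 0.21, SE, adjusted p = 0.0020, edgeR). Rps20 was at 135 and 195 CPM (-1.16), Rplp0 went from 1018 and 1570 CPM to 593 and 615 CPM (-1.10), and Rps19 went from 870 and 1160 CPM to 527 and 579 CPM (-0.87). None of these overlapped its control. The call of Rplp0 was lost without the second control library (-0.76), and that of Rps19 without it (-0.66) or without the first H2O2 7 h library (-0.85). Rpl3, with 1246 and 1620 CPM against 1797 and 2518 CPM, was not called (-0.59, adjusted p = 0.13). The gene that rose was Rps27l. The count moved with single libraries: it was 12 without the first H2O2 7 h library, 21 without the second and 11 without the second control, with medians of -0.77 to -0.50. On the log2(TPM + 1) scale, where the median of all genes was 0.11, 17 genes were lower and 1 higher.

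Under KCl fewer genes had lower footprints. At 2 h of KCl none of the 75 was called in edgeR (6.86% of all genes were, in either direction), with 3 at an unadjusted p under 0.05 and none in DESeq2, while 1 was called without the first control. The median was -0.01. Rplp1, a stalk protein, had the highest value: 500 and 749 CPM stood against 287 and 439 CPM (0.78, adjusted p = 0.12, edgeR). At 7 h of KCl, 13 fell and none rose (9.83% and 10.5% of all genes), with a median of -0.40, and in 48 genes both libraries lay below both controls (32.1% of all genes). Rps19 went from 870 and 1160 CPM to 530 and 528 CPM (-0.94) and Rpsa from 1224 and 1753 CPM to 866 and 949 CPM (-0.71). Rps20, in contrast, was at 399 and 302 CPM, overlapping its control (-0.07, adjusted p = 0.87). The calls of Rps19 (-0.94 to -0.72) and Rpsa (-0.78 to -0.43) were lost without the second control or either KCl 7 h library. With these left out, 1 gene was called without the second control, 1 without the first KCl 7 h library and 4 without the second. Under H2O2 compared with KCl at 7 h, footprints of 9 genes were lower and of 1 higher (17.8% and 23.5% of all genes), with a median of -0.18. The 9 were led by Rps20 (-1.09), Rplp1 (-0.74) and Rplp0 (-0.70), and the 1 was Rps27l (1.27). On the log2(TPM + 1) scale 1 was lower and 2 were higher, where the median of all genes was 0.18, and the count was 2 without the first H2O2 library, 6 without the first KCl library and 5 without the second. The call of Rplp0 was lost without any 1 of the 4 libraries (-0.77 to -0.67) and that of Rplp1 without the first H2O2 (-0.58) or the second KCl library (-0.41).

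**Figure D3:**
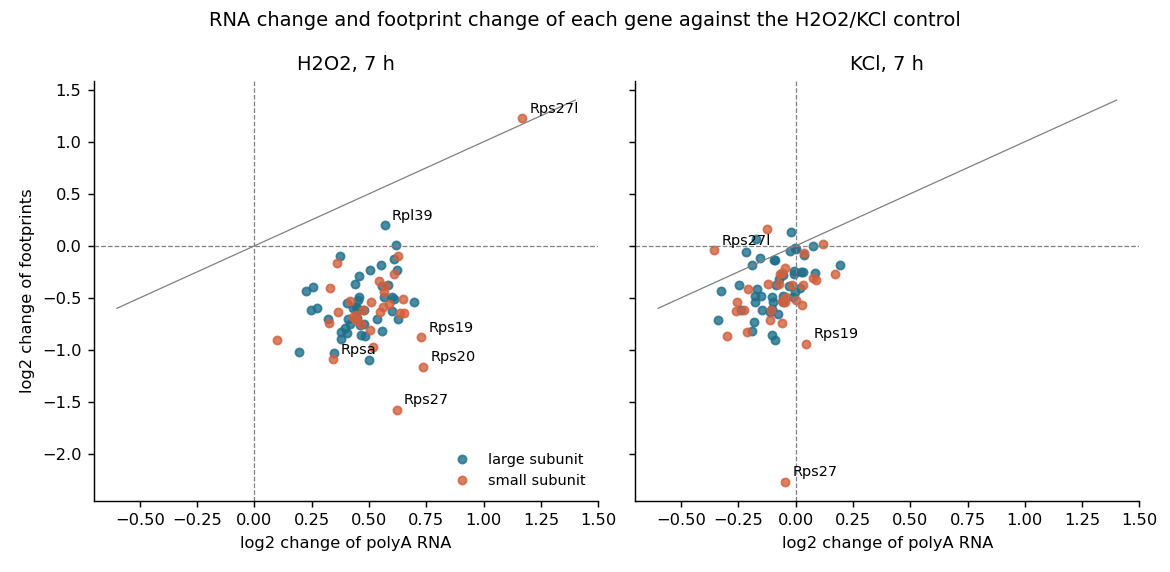
Log2 change of footprints (y axis) against log2 change of polyA RNA (x axis) for each of 75 genes at 7 h of H2O2 (left) and 7 h of KCl (right), with the line of equal change in grey. At 7 h of H2O2 all genes lie right of 0 and all but Rps27l lie below the line, while at 7 h of KCl RNA changes centre near 0 and footprint changes have a median of -0.40.

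Translational efficiency at 7 h of H2O2 was lower for 59 of the 75 genes and higher for none (4.57% and 4.69% of all genes), with a median log2 change of -1.09, or 0.469-fold. RNA and footprints moved apart in these genes: Rps20 had more RNA (0.74) and fewer footprints (-1.16), giving -1.90 ± 0.27 (SE, adjusted p = 0.00054, edgeR). Rps19 (-1.60), Rplp0 (-1.60), Rpsa (-1.43), Rpl12 (-1.37) and Rpl36a (-1.37) followed. Rps27 had the lowest value (-2.19) and is uncertain because of a near-identical copy described below. At the other end Rps27l (0.06 ± 0.23, adjusted p = 0.91), Rpl39 (-0.37 ± 0.42, adjusted p = 0.64) and Rpl15 (-0.47) were not called. Rpl39, a short protein of the exit tunnel, had 103 and 87.7 CPM of footprints in the control and 95.1 and 124 CPM at 7 h, which overlap. The count was 39 without the first footprint library of H2O2 7 h and 38 without the first RNA control, and the medians with 1 library left out ran from -1.22 to -0.98. Across the 75 genes the RNA change and the footprint change at 7 h of H2O2 correlated at 0.422, and at 0.157 without Rps27l.

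**Figure D4:**
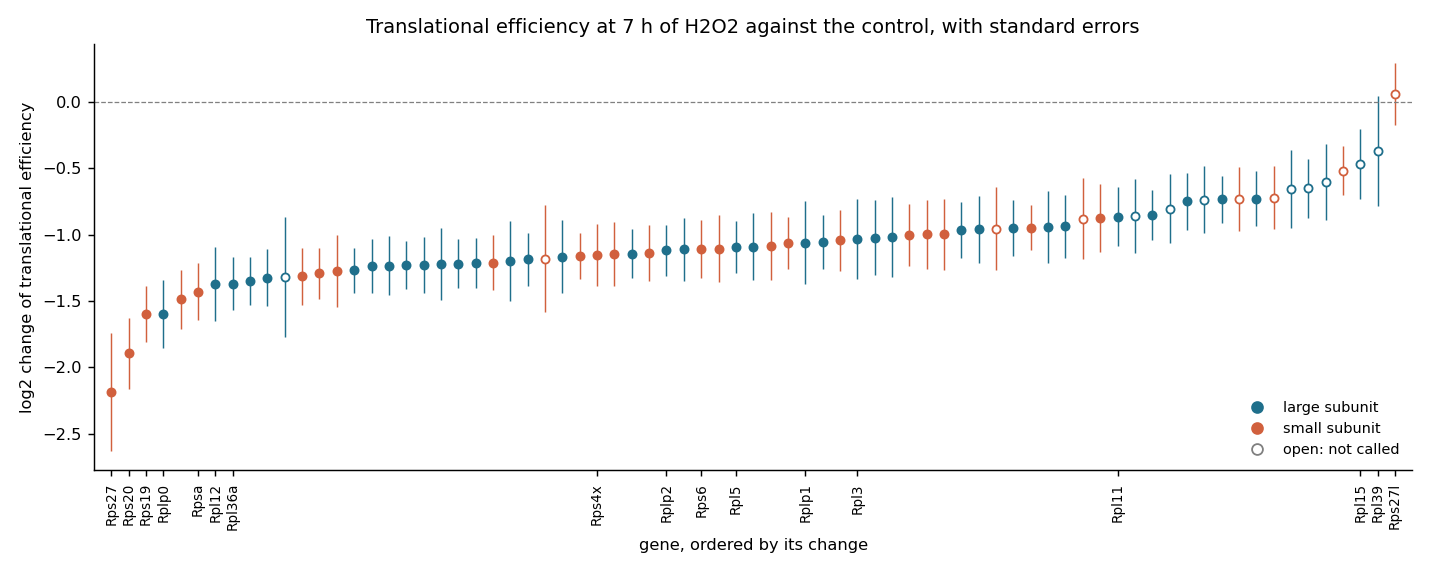
Log2 change of translational efficiency at 7 h of H2O2 against the control for each of 75 genes (points, bars are standard errors), ordered from lowest to highest, filled where called and open where not, with the genes the text discusses labelled. Rps27, Rps20 and Rps19 stand at the low end, and Rps27l at 0.06 is the gene above 0.

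Under KCl the efficiencies changed less. At 2 h of KCl no gene was called in edgeR (12.8% of all genes were, in either direction), with 1 at an unadjusted p under 0.05 and none in DESeq2, while 1 was called without either footprint control. At 7 h of KCl, 2 were lower and none higher (3.88% and 1.69% of all genes), with a median of -0.33. These were Rps27 (-2.19, adjusted p = 0.012, edgeR) and Rps19 (-0.96 ± 0.21, SE, adjusted p = 0.013). Rps19 was no longer called without the second footprint control (-0.73), the second KCl footprint library (-0.95), either RNA control (-0.93 and -0.97) or the first KCl RNA library (-0.89), and Rps27 without the second KCl footprint library (-2.02), while 5 genes were called without the first footprint control. Compared directly, 44 of 75 genes had lower efficiency under H2O2 than under KCl at 7 h and none higher (4.76% and 7.29% of all genes), with a median difference of -0.78, or 0.584-fold. Rps20 differed most (-1.81 ± 0.27, SE, adjusted p = 0.00066, edgeR), then Rpl37 (-1.31), Rpl36a (-1.27) and Rplp0 (-1.20). Rps15 (-0.14), Rps28 (-0.23) and Rps27 (0.00) lay nearest to 0. The count of 44 fell to 15 to 28 when any 1 of 6 libraries was left out: the first H2O2 7 h footprint library (19), the second KCl 7 h footprint library (16), the RNA libraries of H2O2 7 h (16 and 24) or those of KCl 7 h (28 and 15). From 2 h to 7 h of H2O2, 38 of 75 fell and none rose (2.27% and 4.93% of all genes), with a median of -0.77. Rps21 fell furthest (-1.39), and Rps10 (-1.31) was among the lowest. Rpsa, already low at 2 h, stood at 0.25 ± 0.22 (adjusted p = 0.52). The count was 16 without the first H2O2 7 h footprint library, 18 and 12 without the RNA libraries of 2 h, and 12 and 17 without those of 7 h.

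Rps27l, a paralog of Rps27 that is known as a target of p53, was set apart from the other members by its RNA. It was at 95.8 and 98.0 CPM in the H2O2/KCl control, at 91.3 and 102 CPM at 2 h of H2O2 and at 220 and 216 CPM at 7 h. Under KCl it was at 97.7 and 92.9 CPM at 2 h and at 83.0 and 68.3 CPM at 7 h, and 42 °C gave 136 and 133 CPM against 99.5 and 90.7 in the heat control (0.50). The H2O2 7 h libraries were the highest of the H2O2/KCl experiment (1.17 ± 0.08, SE, adjusted p = 1.1e-08, edgeR), which was 5.03 scaled median absolute deviations above the median member. Footprints followed: 111 and 107 CPM in the control, 108 and 184 CPM at 2 h, and 256 and 253 CPM at 7 h of H2O2 (1.23 ± 0.22, adjusted p = 0.0011), while KCl gave 106 and 113 CPM at 2 h and 105 and 106 CPM at 7 h. The 2 libraries at 2 h of H2O2 disagreed, and without the second the change was -0.02. The 11 other listed targets of p53 all rose in RNA at 7 h of H2O2 (39.4% of all genes), with a median of 3.77. Among them were the stress cytokine Gdf15 (6.10), the cell cycle inhibitor Cdkn1a (5.45) and Mdm2 (4.88). The rise of Rps27l was smaller than their median and larger than that of any other ribosomal protein gene. In other groups these targets and Rps27l did not always move together. At 2 h of H2O2, 8 of the 11 rose and 1 fell (27.3% and 26.5% of all genes, median 0.85). At 42 °C, 4 rose and 7 fell (31.7% and 31.9% of all genes, median -0.22). At 7 h of KCl, 4 rose and 4 fell (37.2% and 31.6% of all genes, median 0.01). For KCl at 2 h, 3 rose and 6 fell (27.2% and 27.0% of all genes, median -0.22). For 44 °C, 6 rose and 0 fell (35.4% and 35.7% of all genes, median 0.23).

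**Figure D5:**
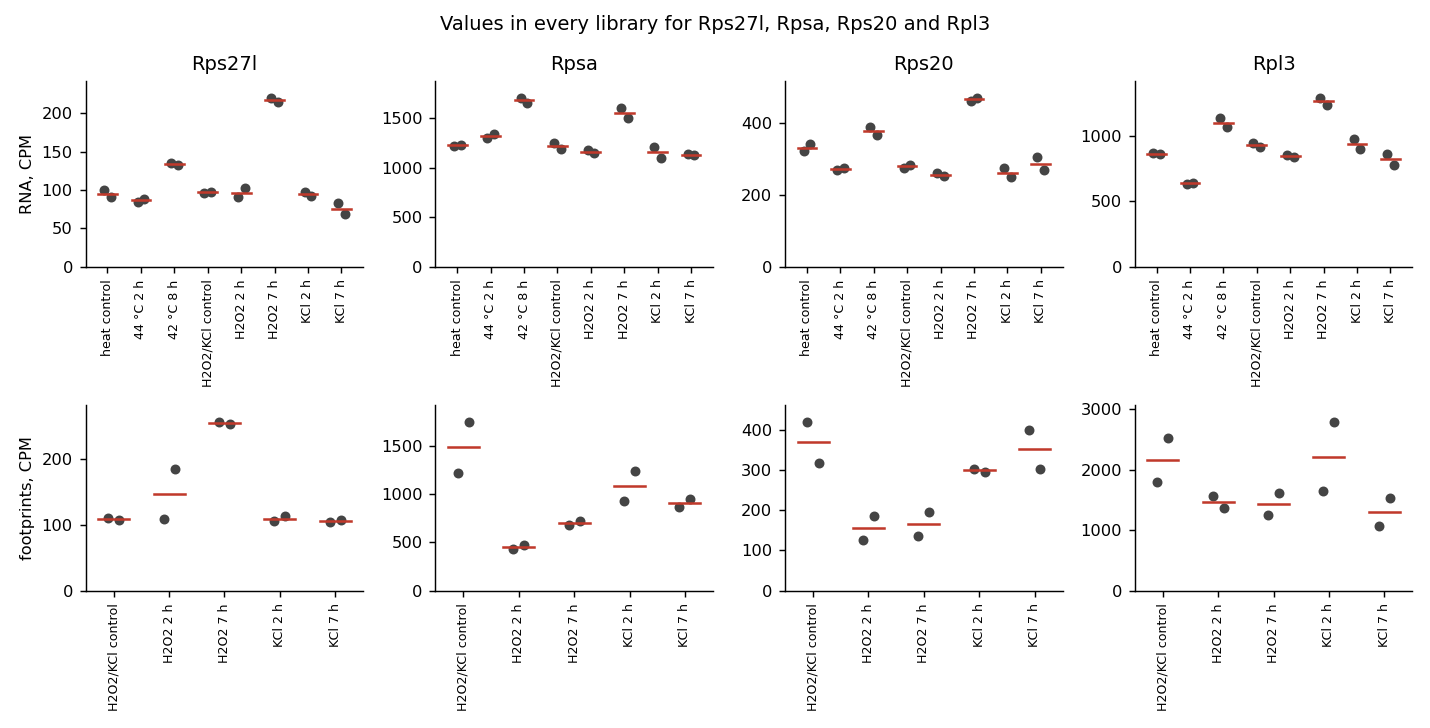
CPM in every library (points) with group means (red lines) for Rps27l, Rpsa, Rps20 and Rpl3, in polyA RNA (top) and footprints (bottom), each axis from 0. Heat and H2O2/KCl libraries were normalised separately, so RNA levels are compared only within an experiment. Rps27l is highest at 7 h of H2O2 in both assays, footprints of Rpsa are lowest at 2 h of H2O2 (431 and 475 CPM), and Rpl3 RNA at 44 °C (634 and 639 CPM) is below its heat control.

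Medians of large and small subunit genes were -0.13 and -0.13 in RNA at 44 °C, 0.35 and 0.35 at 42 °C, and 0.46 and 0.53 at 7 h of H2O2. In translational efficiency at 7 h of H2O2 they were -1.06 and -1.11, with 36 of 45 large and 23 of 30 small subunit genes called lower. The widest gap was in footprints at 2 h of KCl, 0.03 for large and -0.10 for small subunit genes, where no gene was called. Differences between the subunits were not tested, since the members of a subunit are not replicates.

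The acidic stalk recruits elongation factors to the ribosome. Its RNA rose at 7 h of H2O2 (Rplp0 0.50, Rplp1 0.45, Rplp2 0.61), and its translational efficiency fell (Rplp0 -1.60, Rplp1 -1.06, Rplp2 -1.12). The call of Rplp1 had an adjusted p of 0.041 and was lost without any 1 of 6 of the 8 libraries (-1.09 to -0.70). The Mdm2-binding pair rose in RNA at 7 h of H2O2, Rpl5 from 731 and 723 CPM to 1015 and 1007 CPM (0.48) and Rpl11 from 444 and 477 CPM to 553 and 560 CPM (0.27). Both fell in efficiency, Rpl5 by 1.09 and Rpl11 by 0.86 on the log2 scale. Rpl11 was no longer called in RNA without the first H2O2 7 h library (0.20) or the first control (0.22), nor in efficiency without any 1 of 6 of the 8 libraries (-0.90 to -0.71). Rps6, the substrate of the S6 kinases, rose in RNA (0.45) and fell in efficiency (-1.11). Rpl3 rose in RNA (0.44) and fell in efficiency (-1.03), a call lost without any 1 of 6 of the 8 libraries (-1.04 to -0.75). X-linked Rps4x (0.44 in RNA, -1.15 in efficiency) and Rpl36a (0.35 and -1.37) did the same. Rpl41 RNA rose by 0.33, with no footprints to compare.

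Genes outside the group that work with it were taken from lists chosen with earlier results of these data known. At 7 h of H2O2, 39.4% of all genes were higher and 31.1% lower in RNA, and 4.69% were higher and 4.57% lower in efficiency, the background for the counts that follow. Of 8 further ribosomal genes tested at 7 h of H2O2, 7 rose in RNA and none fell (median 0.53), among them Rps27rt (0.76), Fau (0.75) and Rps27a (0.62). In efficiency 5 of the 8 fell and none rose (median -0.96), among them Rps27rt (-1.77), the scaffold Rack1 (-1.20) and Rps27a (-1.13). Of 25 other TOP mRNAs, 22 rose and 1 fell in RNA (median 0.40), led by the snoRNA hosts Snhg1 (1.33) and Gas5 (0.94) and the nucleolar chaperone Npm1 (1.01). Of 23 tested in efficiency, 10 fell and none rose (median -0.72), among them the elongation factor subunit Eef1b2 (-1.65), the poly(A)-binding protein Pabpc1 (-1.65) and Tpt1 (-1.65). Of 38 ribosome biogenesis factors, 30 rose and 3 fell in RNA (median 0.41; Utp20 1.51), and 16 fell in efficiency with none higher (median -0.80; Ncl -1.19, Tsr1 -1.17, Nop56 -1.13). Of 24 genes of mTORC1 signalling, 8 rose and 9 fell in RNA (median -0.06), shares near those of all genes. The inhibitors of mTORC1 Ddit4l (7.21) and Sesn2 (3.74) and the AMPK subunit Prkaa2 (3.67) moved most. At 42 °C, 24 of 25 other TOP mRNAs and 34 of 38 biogenesis factors rose and none fell (31.7% and 31.9% of all genes), with medians of 0.34 and 0.46. All-gene medians were 0.08 in RNA and 0.06 in efficiency at 7 h of H2O2 and -0.01 at 42 °C. Npm1, Sesn2 and Mdm2 each stand in 2 lists.

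Near-identical copies limit a few members. Rps27 had 37 to 325 footprint counts per library and its copy Rps27rt 224 to 1100, while in RNA the copy had 315 to 753 and Rps27 3375 to 9066, so footprint reads of Rps27 may be divided between them. Footprints of Rps27 were 30.6 and 89.3 CPM in the control, 18.2 and 21.9 CPM at 7 h of H2O2 (-1.57) and 13.9 and 11.1 CPM at 7 h of KCl (-2.27), with the control libraries further apart from each other than the treated ones. The call of Rps27 at 7 h of H2O2 was lost without the second control library (-0.61), without either H2O2 7 h library (-1.49 and -1.75) and with log2(TPM + 1) values (-1.26), and its call at 7 h of KCl without the second KCl library (-2.10). With Rps27 summed with Rps27l, whose own footprints rose, the value at 7 h of H2O2 was 0.70 in footprints. In efficiency it was -0.14 and not called. With Rps27 and Rps27rt summed, the efficiency kept its sign and call at 7 h of H2O2, while at 7 h of KCl it was -0.91 and not called. With 1 library left out, the efficiency of Rps27 at 7 h of H2O2 ran from -2.78 to -1.21. Rpl32 and Rpl37 also have copies, Rpl32l with 70 to 904 and Rpl37rt with 0 to 31 footprint counts, so reads of Rpl32 may also be divided. Rpl37rt took few counts beside Rpl37, the highest member in control footprints (4887 TPM). How reads were divided between Rpl37 and its copy was not tested.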

How the data were processed

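The authors sequenced polyadenylated RNA and ribosome footprints of NIH3T3 cells and deposited, per gene, expected counts and TPM. STAR, RSEM, Bowtie and the mouse build mm10 are named in the submitters' processing notes, which as used here give no versions or settings. The expected counts were deposited by the authors as whole numbers per gene, and the TPM values are the authors' length-corrected levels. A further 12 columns of per-sample values that match no label were not used. The authors also deposited calls of readthrough transcripts, which are described only as values.

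Expected counts were taken as whole numbers and tested over all genes with edgeR 4.0.16 (R 4.3.3): TMM scaling, filterByExpr, the quasi-likelihood test and Benjamini-Hochberg adjustment at 0.05, on 6 heat RNA, 10 H2O2/KCl RNA and 10 footprint libraries. Translational efficiency was the interaction of library kind and group. TMM sets changes relative to the bulk of genes, not to absolute amounts. The alternatives were DESeq2 1.42.0, limma 3.58.1 on log2(TPM + 1) or with voom, no filter, TMM without the members, only the groups compared, a replicate block, summed copies and leaving out each library. The fits were also run on simulated counts in which few genes changed, by more than most members changed in RNA. That run therefore says little about small changes or about comparisons in which many genes changed. The members and lists were chosen with earlier results of these data known. Named members are the 3 highest and 3 lowest changes in a comparison, those over 3 scaled median absolute deviations from the members' median, and a list by role (stalk, Rpsa, Rps6, Rpl5, Rpl11, Rpl3, Rpl41, Rpl39, Rps27, Rps27l, Rpl36a, Rps4x). Some results for single members are not reported here. Other members named were chosen after their values were seen. RNA libraries held 24441877 to 45244430 expected counts and footprint libraries 1460751 to 5168537, so footprint values are the less precise.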

Additional observations from a re-analysis of the deposited data

Results flagged for a closer look

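A direct test between the stresses at 7 h picked out 3 results, because it called ribosomal protein genes as different between H2O2 and KCl. In RNA, 76 of 76 differed, all higher under H2O2 (41.0% of all genes were higher and 37.4% lower). In translational efficiency 44 of 75 differed, all lower under H2O2 (4.76% of all genes were lower and 7.29% higher). In footprints 10 of 75 differed, 9 lower and 1 higher under H2O2, a smaller share than among all genes (17.8% lower and 23.5% higher), and with 1 library left out the count was 2 to 7. With groups of 2 libraries, no sample could be checked for standing apart within its group.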

How the results depend on the processing

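Over all comparisons and alternatives, 233 counts of called ribosomal protein genes stayed within 1.5 times of the reported count, 61 moved further and 3 turned direction. The 233 include the minimum of 1000 expected counts for each of the 21 comparisons. It left the same 76 genes, so its counts could not differ. On the log2(TPM + 1) scale, 19 genes were called in RNA at 2 h of KCl (all lower, where the counts gave 5 higher), 38 in RNA at 7 h of KCl, 1 in footprints at 2 h of H2O2, 18 in footprints at 7 h of H2O2 and 3 in footprints of H2O2 against KCl (2 higher, where the counts gave 1 higher and 9 lower). On that scale Rplp0 stood at -0.17 between the heat treatments and Rpl10 at -0.0433 at 42 °C. With no filter, 16 genes were called in RNA at 2 h of H2O2, 8 in RNA at 2 h of KCl and 6 in footprints at 2 h of H2O2. With only the groups compared in the fit, 3 were called in RNA at 2 h of KCl, 1 in footprints at 2 h of H2O2, 17 in footprints of H2O2 against KCl and 1 in efficiency at 7 h of KCl. DESeq2 called 7 in footprints at 2 h of H2O2 and 6 in efficiency at 7 h of KCl. In efficiency at 7 h of KCl, limma voom called 1, summing Rps27 with Rps27l called 1, and summing the near-identical copies, an alternative chosen after seeing the data, also called 1. With Rps27 and Rps27l summed, footprints at 7 h of H2O2 stood at 0.70. The cause of these differences was not tested.

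With the replicate number as a block, 12 genes were called in efficiency at 2 h of H2O2, 1 in efficiency at 2 h of KCl, 1 in footprints at 2 h of KCl and 22 in footprints at 7 h of KCl, and in efficiency at 7 h of H2O2 66. The numbers were not taken to pair samples, since deviations of same-numbered libraries correlated at -0.0531 to 0.117 in RNA and -0.384 to 0.417 in footprints. The negative footprint values all involve H2O2 2 h, and the 6 pairs of groups without it lay at 0.198 to 0.417. Under the block Rplp1 was called in footprints at 2 h of KCl (0.79, adjusted p = 0.019, edgeR).

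With 1 library left out, the RNA counts ran from 2 to 12 (H2O2 2 h), 1 to 20 (KCl 2 h), 9 to 27 (KCl 7 h) and 7 to 25 (KCl 7 h against 2 h). Footprint counts ran from 1 to 3 (H2O2 2 h), 11 to 35 (H2O2 7 h), 0 to 1 (KCl 2 h), 1 to 9 (KCl 7 h) and 2 to 7 (H2O2 against KCl). Efficiency counts ran from 4 to 13 (H2O2 2 h), 38 to 63 (H2O2 7 h), 12 to 36 (H2O2 7 h against 2 h), 15 to 44 (H2O2 against KCl), 0 to 1 (KCl 2 h) and 1 to 5 (KCl 7 h). Single genes that changed sign were Rps2 in RNA at 7 h of H2O2 (-0.0209 to 0.16), Rpl12 in efficiency from 2 h to 7 h of H2O2 (-0.42 to 0.51), and, in footprints, Rps27l at 2 h of H2O2 (-0.0189 to 0.76), Rpl39 at 7 h of H2O2 (-0.0458 to 0.33), Rps27 at 2 h of KCl (-1.43 to 0.0753) and Rps20 at 7 h of KCl (-0.28 to 0.15). An arm left with 1 library was assumed to vary like the other groups. Groups of 2 libraries and footprint depths down to 1460751 counts limit these results.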

Other observations

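The authors' deposited readthrough calls, transcripts that run on past a gene's end, covered 6399 pairs of neighbouring genes, and a ribosomal protein gene was the upstream gene in 59 of them. Of these 59, 29 and 29 were called at 42 °C and 29 and 27 at 44 °C, against 16 and 14 in the heat control, while 32.0% and 30.5%, 32.7% and 32.7%, and 27.9% and 26.5% of all pairs were called in the same libraries. In the H2O2/KCl control 21 and 14 of the 59 were called (24.2% and 25.2% of all pairs). For H2O2 these were 31 and 25 after 2 h (34.4% and 35.7% of all pairs) and 12 and 19 after 7 h (19.4% and 21.2%). For KCl they were 19 and 27 after 2 h (31.9% and 34.7%) and 17 and 15 after 7 h (23.8% and 23.4%). Read-in calls, where the transcript reaches the next gene, were made for 0 to 4 of the 59 pairs per library and for 0.547% to 2.95% of all pairs.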
